A study of Mus musculus with 9 samples.

Results

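The solute carrier family 25 (Slc25) holds the carrier proteins of the inner mitochondrial membrane, and its expression was described here in the gastrocnemius, a calf muscle, of female mice. Members were the genes whose symbol is Slc25a followed by digits only and whose counts summed to at least 30 over the 9 libraries, which used no difference between groups. The table held 47 such symbols among 56791 genes, and 44 of them reached the sum. Slc25a31, the testis form of the ADP/ATP carrier, had 12 reads in all, Slc25a54 had 16 and Slc25a41 had 8, and these 3 were left out. Of the 44 members, 41 passed the filter on low counts and were tested. The untested ones were Slc25a21 (50 reads in all), Slc25a43 (51 reads) and Slc25a48 (39 reads).

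RNA was sequenced from 3 groups of 3 libraries each, all from female mice. Aged GB animals received ginkgolide B, a terpene lactone of the ginkgo tree, at 12 mg per kg. Aged vehicle and young vehicle animals received saline. All groups were dosed daily by oral gavage for 2 months, and the strain is not stated in the labels. Titles of the vehicle libraries carry 3M for young and 23M for aged animals with no unit spelled out, and titles of the GB libraries carry no such value. The series design names 2 comparisons, aged vehicle against young vehicle and aged GB against aged vehicle. Both use the same 3 aged vehicle libraries, so they are not independent of each other.

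Carriers of this family exchange one solute for another across the inner membrane, or let it pass with protons, and most are imported from the cytosol without a cleaved presequence. In muscle the best known is the ADP/ATP carrier, which sends ATP made in the matrix out to the contractile apparatus and brings ADP back, while the phosphate carrier supplies the phosphate for ATP synthesis. The aspartate/glutamate and oxoglutarate carriers form the malate-aspartate shuttle, which moves reducing equivalents from the cytosol into the matrix. Other members carry citrate, amino acids, acylcarnitines, glutathione, nucleotides, cofactors and iron.

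The aged GB libraries held 39478427 to 44294097 counts over 18678 to 19362 genes, and the vehicle libraries 51543383 to 61680520 counts over 22616 to 24185 genes. The share of mitochondrially encoded genes was 24.3 to 26.1% of counts for aged GB, 13.9 to 15.3% for aged vehicle and 8.6 to 10.2% for young vehicle libraries. No batch is recorded in the labels, so for the GB libraries preparation and treatment cannot be told apart. In each group the library numbered 1 stood apart from the other two: the chi-square per degree of freedom between libraries (near 1 for sampling noise alone) was 33.8 to 61.2 for pairs that hold it and 16.8 to 19.0 for the pairs of libraries 2 and 3. All 6 skeletal muscle markers were measured. Their sum was 150310 to 174100 CPM in aged GB, 80906 to 90325 for aged vehicle and 111400 to 122480 for young vehicle libraries. This CPM, used for all marker sums, is counts scaled to library size times a trimmed mean of M-values (TMM) factor. The factor was 0.753 to 0.797 for aged GB and 1.09 to 1.17 for vehicle libraries. A lower factor gives a higher CPM. Marker sums on plain library totals were not computed, so the order of groups is given on this scale only. The sum of 6 slow fibre markers was 1041 to 1306 CPM for aged GB, 55.4 to 99.8 CPM for aged vehicle and 1123 to 1514 CPM for young vehicle libraries. In whole tissue, fewer cells of a type and less RNA per cell cannot be told apart, and the part of these differences in the results was not tested.

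One carrier dominated the family. Slc25a4, the heart and muscle form of the ADP/ATP carrier, averaged 3576 TPM (counts per gene length, scaled to a fixed sum in each library) over the 9 libraries, which was 73.8% of the TPM summed over all 44 members. It was followed by Slc25a11, the oxoglutarate/malate carrier (292 TPM), Slc25a3, the phosphate carrier (262 TPM), and Slc25a12, the muscle and brain form of the aspartate/glutamate carrier (176 TPM). In all 3 aged GB libraries Slc25a3 lay above Slc25a11, at 210.5, 201 and 181 against 148, 131 and 108 TPM. The upper 3 members together held 85.3% and the upper 10 held 94.1% of the sum. Ranks 5 to 9 were Slc25a25 (61.5 TPM), Slc25a5 (53.6 TPM), Slc25a39 (42.8 TPM), Slc25a20 (34.5 TPM) and Slc25a51 (33.4 TPM). The place of Slc25a25 rests on the aged groups: it averaged 35.9 TPM in aged GB, 128 TPM in aged vehicle and 20.5 TPM in young vehicle libraries, and in young vehicle libraries Slc25a5 (56.5 TPM) and Slc25a39 (52.2 TPM) lay above it. In all, 24 members averaged at least 10 TPM and 7 averaged under 1 TPM. Among paralogs, 1 form was far above the other in the case of Slc25a4 over Slc25a5, Slc25a12 over Slc25a13 (0.744 TPM), the glutamate carrier Slc25a22 over Slc25a18 (10.6 and 0.363 TPM) and the ornithine carrier Slc25a15 over Slc25a2 (6.22 and 0.574 TPM). The level of Slc25a4 was 2282, 2617 and 2501 TPM in aged GB libraries, 4317, 4380.4 and 4327 TPM in aged vehicle libraries and 3998, 3932 and 3826 TPM in young vehicle libraries, and its share of the summed TPM was 75.9 to 79.3% for aged GB, 71.7 to 73.0% for aged vehicle and 72.4 to 73.1% for young vehicle libraries.

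**Figure D1:**
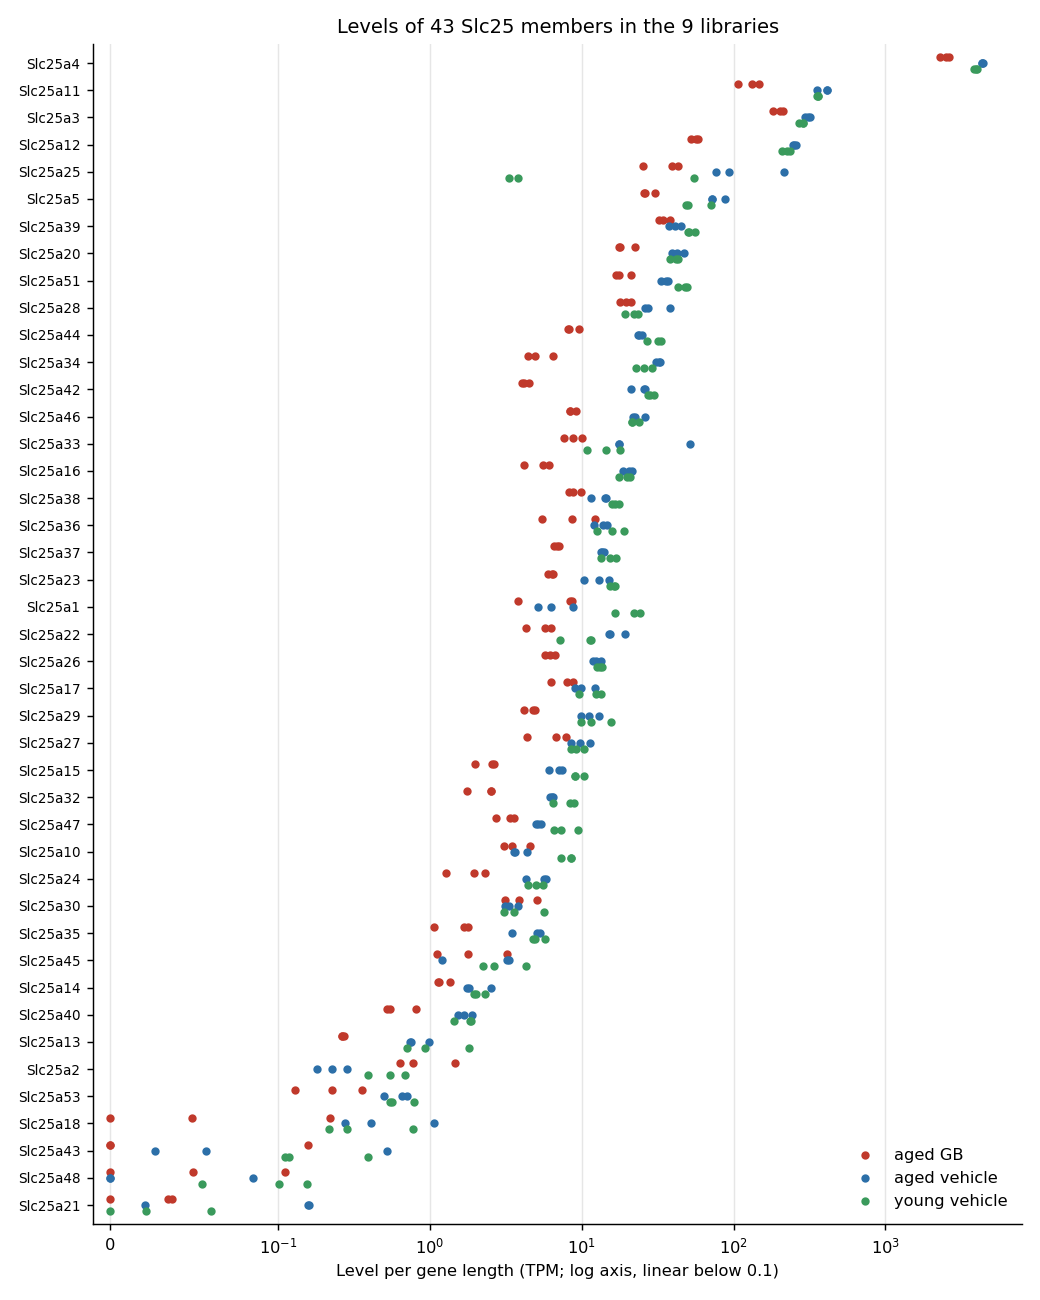
Level of 43 of the 44 Slc25 members in TPM (log axis, linear below 0.1) in 3 aged GB, 3 aged vehicle and 3 young vehicle libraries, ordered by the mean over all libraries; each point is 1 library. Slc25a4 lies far to the right of the others, and most members lie further left in aged GB libraries, as 40 of 44 had a lower mean TPM there than in aged vehicle libraries.

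Between groups, levels are compared as CPM scaled by trimmed mean of M-values (TMM) factors, which centre the bulk of all genes, and not as TPM. The choice matters for the family. Mean TPM was lower in aged GB than in aged vehicle libraries for 40 of the 44 members, and mean TMM-scaled CPM was lower for 23. The TMM-scaled CPM summed over members was 6293 ± 450.2 in aged GB, 6050 ± 278 in aged vehicle and 4949 ± 181 in young vehicle libraries (SD, n = 3 each). On plain library totals the sums were 4845 ± 208 CPM for aged GB, 6906 ± 48.2 CPM for aged vehicle and 5619.6 ± 149 CPM for young vehicle. The aged GB and aged vehicle sums overlapped on the TMM scale (5826 to 6724 against 5857 to 6369 CPM). On library totals all aged GB sums lay below all aged vehicle sums (4645 to 5061 against 6860 to 6956 CPM), so the difference depends on the scaling. All fold changes below are on the log2 scale from edgeR's quasi-likelihood model of TMM-scaled counts, with Benjamini-Hochberg adjusted p-values over 17534 genes, and a gene is called at an adjusted p under 0.05.

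With age, few carriers were called. In aged vehicle against young vehicle libraries 5 of the 41 tested members were called (12.2%), beside 8.6% of all tested genes. Slc25a5, Slc25a22 and Slc25a28 rose (3 of 41, beside 4.32% of all tested genes called higher), and the citrate carrier Slc25a1 and the dicarboxylate carrier Slc25a10 fell (2 of 41, beside 4.28% called lower). The median log2 fold change of the members was -0.00, as was that of all tested genes. Of the 41, 10 had all aged vehicle libraries above all young vehicle libraries and 8 had all below, beside 17.5% and 16.9% of all tested genes. The large carriers were not called: Slc25a4 had 0.25 (SE 0.08, adjusted p = 0.072), Slc25a3 0.23 (SE 0.08, adjusted p = 0.0947), Slc25a12 0.28 (SE 0.09, adjusted p = 0.0649) and Slc25a11 0.24 (SE 0.10, adjusted p = 0.188). Each of these large carriers nevertheless had all aged vehicle libraries above all young vehicle libraries. Summed over members, of which Slc25a4 is the largest part, TMM-scaled CPM was 5857 to 6369 for aged vehicle and 4833 to 5158 for young vehicle libraries. On library totals the sums were 6860 to 6956 against 5473 to 5771 CPM. Slc25a4 was called higher with age in 6 of 15 alternatives and Slc25a12 in 4, while Slc25a3 and Slc25a11 were called in none. Of the 5 calls, the fall of Slc25a10 was called in all 15 alternatives tried, and none of the 3 rises was. Without the 3 libraries numbered 1, 4 members were called higher and 3 lower of 43 tested, when 13.8% of all genes tested were called.

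With GB, 22 of the 41 tested members were called (53.7%), which is near the 53.2% of all tested genes called in aged GB against aged vehicle libraries. Rises numbered 11 (26.8%, beside 24.4% of all tested genes), and falls numbered 11 (26.8%, beside 28.8%). The median log2 fold change was -0.10 over the members and -0.05 over all tested genes. Of the 41, 10 had all aged GB libraries above all aged vehicle libraries and 12 had all below. The shares over all tested genes were 27.3% and 32.5%, so a lack of overlap was common. The largest falls among carriers with at least 2 CPM were Slc25a34, Slc25a42 and Slc25a12, and the largest rises were Slc25a30, Slc25a1 and Slc25a10. Among the members named here, Slc25a30 and Slc25a2 were called higher, and Slc25a12, Slc25a44, Slc25a34, Slc25a42, Slc25a16 and Slc25a11 called lower, in all 15 alternatives. Without the 3 libraries numbered 1, 13 members were called higher and 13 lower of 43 tested, when 54.5% of all genes tested were called. On library totals, where the median of all tested genes was -0.62, 3 members were called higher and 23 lower, and Slc25a4, Slc25a3, Slc25a28, Slc25a38, Slc25a51, Slc25a37, Slc25a23, Slc25a36, Slc25a26, Slc25a47, Slc25a27 and Slc25a14 turned from above to below 0. Called lower there but not called on the TMM scale were Slc25a24, Slc25a51, Slc25a33, Slc25a40, Slc25a13, Slc25a26, Slc25a20, Slc25a35, Slc25a29, Slc25a37 and Slc25a23. Slc25a4, called higher on the TMM scale, was called lower there.

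**Figure D2:**
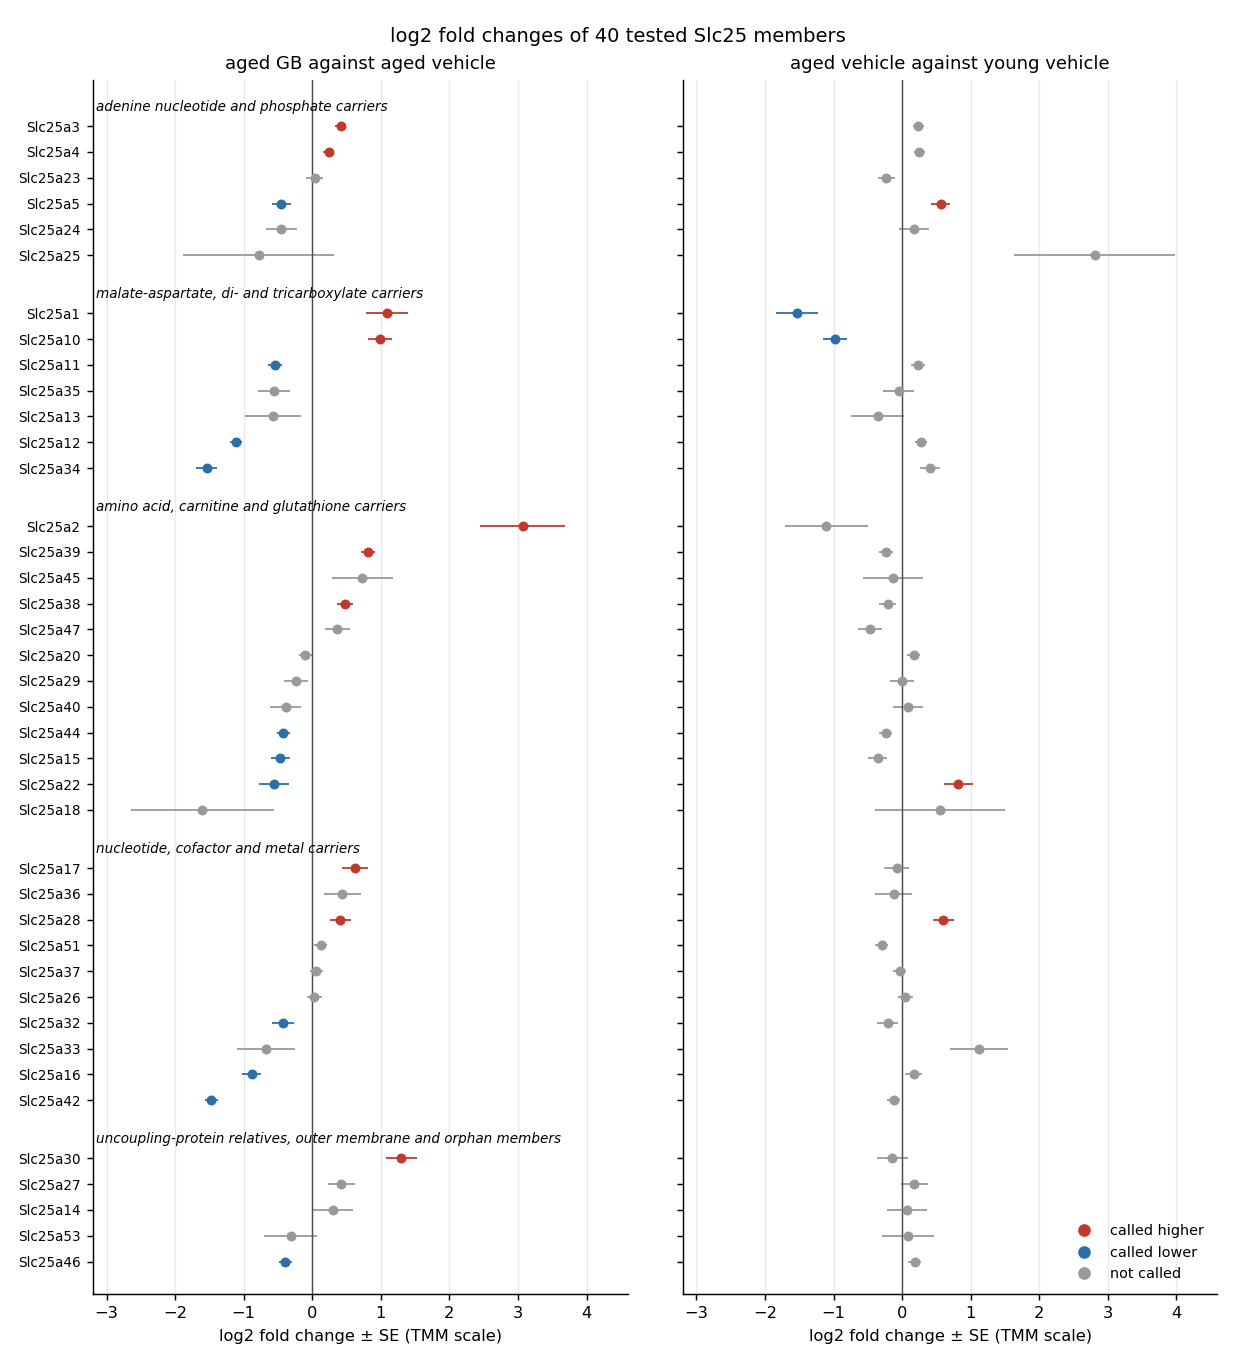
log2 fold change ± SE (TMM scale) of 40 of the 41 tested members by role, in aged GB against aged vehicle libraries on the left and aged vehicle against young vehicle libraries on the right; red points were called higher, blue points lower and grey points were not called. Called rises and falls are spread over the roles in the left panel, and the right panel holds 3 called rises and 2 called falls.

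Adenine nucleotide and phosphate carriers come first, with 6 of 6 members tested. With GB 2 were called higher and 1 lower (33.3% and 16.7%, beside 24.4% and 28.8% of all tested genes). With age 1 was called higher (16.7%, beside 4.32%). The median log2 fold change was -0.21 with GB and 0.24 with age, beside -0.05 and -0.00 over all tested genes. Slc25a4 had 3664, 4429 and 4174 CPM in aged GB libraries, 3529, 3412 and 3458 CPM in aged vehicle libraries and 2840.1, 3062 and 2820.3 CPM in young vehicle libraries. All 3 aged GB libraries lay above all aged vehicle libraries, and the log2 fold change with GB was 0.24 (SE 0.08, adjusted p = 0.0244). That call was lost in 7 of 15 alternatives, and the direction turned on library totals (-0.33) and with an offset for gene length (-0.12). Slc25a3 had 797, 803 and 714 CPM in aged GB libraries, 569.8, 570.0 and 598 CPM in aged vehicle libraries and 452, 527 and 499 CPM in young vehicle libraries, with a log2 fold change with GB of 0.41 (SE 0.08, adjusted p = 0.000816) and of -0.15, not called, on library totals. Slc25a5, the ADP/ATP carrier of most other tissues and of dividing cells, went the other way. It had 33.9, 30.1 and 30.5 CPM in aged GB libraries, 50.1, 39.1 and 40.1 CPM in aged vehicle libraries and 35.3, 27.4 and 24.9 CPM in young vehicle libraries, a log2 fold change of -0.45 (SE 0.14, adjusted p = 0.0156) with GB and of 0.56 (SE 0.14, adjusted p = 0.025) with age. Young replicate 1 lay nearest to the aged vehicle values, and the rise with age was lost without aged replicate 1 or 3 or young replicate 2 or 3. The fall with GB was lost without aged replicate 1 or GB replicate 2. Within a library the TPM of Slc25a4 was 75.5 to 103 times that of Slc25a5 for aged GB, 49.2 to 61.1 times for aged vehicle and 56.3 to 79.3 times for young vehicle libraries. Slc25a5 has near-identical copies in the genome and its counts are therefore uncertain. Endothelial markers, 5 of 5 measured and none at 0 throughout a group, summed to 199 to 268 CPM for aged GB, 418 to 443 CPM for aged vehicle and 287 to 315 CPM for young vehicle libraries, so they were likewise highest in aged vehicle libraries. Sums of red blood cell markers, given below, were also highest there. Macrophage markers were too, at 38.7 to 55.2 CPM for aged GB, 82.3 to 90.4 CPM for aged vehicle and 70.5 to 72.7 CPM for young vehicle libraries. The part of any of these in the values of Slc25a5 was not tested.

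The promoter windows of this pair of paralogs are given because the pair moved in opposite directions with GB on the TMM scale, while on library totals Slc25a4 was lower too. They run from 250 bases before to 50 after the RefSeq start on GRCm38.p6, 5′ to 3′ on the gene's strand, with GC boxes (GGGCGG on either strand) in capitals. Slc25a4 lies on the minus strand at chr8:46211013-46211312 and Slc25a5 on the plus strand at chrX:36795347-36795646.
Slc25a4: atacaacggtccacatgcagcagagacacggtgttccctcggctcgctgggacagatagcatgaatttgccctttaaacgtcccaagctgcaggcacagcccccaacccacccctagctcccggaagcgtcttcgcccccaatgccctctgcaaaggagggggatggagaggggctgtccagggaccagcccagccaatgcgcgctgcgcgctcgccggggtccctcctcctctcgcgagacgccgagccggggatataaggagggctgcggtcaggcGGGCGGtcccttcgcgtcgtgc
Slc25a5: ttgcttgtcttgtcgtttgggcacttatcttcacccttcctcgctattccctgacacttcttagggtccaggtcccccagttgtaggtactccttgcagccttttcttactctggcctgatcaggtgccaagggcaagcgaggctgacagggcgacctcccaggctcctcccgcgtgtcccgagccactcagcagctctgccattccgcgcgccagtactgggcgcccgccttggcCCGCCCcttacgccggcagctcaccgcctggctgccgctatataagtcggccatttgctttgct
Windows were found for 34 of the 44 members, 44 windows in all. Some windows of the same member overlap. Of the 44 windows, 37 from 29 members hold a GC box, beside 11714 of all 32851 windows (35.7%). Neither window printed here holds the E-box CACGTG, the ERR element TCAAGGTCA or the TATA box letters TATAAA on either strand, and no match says only that these letters are not in this window. The E-box stood in 7 of the 44 member windows, from 6 members (Slc25a33, Slc25a13, Slc25a15, Slc25a36, Slc25a1 and Slc25a14), beside 2349 of all 32851 windows (7.15%). The Slc25a14 windows that hold it overlap and share the same site, which is counted in each.

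Slc25a25, Slc25a24 and Slc25a23 are calcium-regulated carriers that exchange ATP-Mg for phosphate and so set the adenine nucleotide pool of the matrix. Slc25a25 differed widely between libraries of the same group. It had 135, 223 and 240.5 CPM in aged GB libraries, 584, 244 and 204 CPM in aged vehicle libraries and 129, 8.67 and 9.37 CPM in young vehicle libraries. Young replicates 2 and 3 lay far below the other 7 libraries, and young replicate 1 lay just below the lowest aged GB library. The log2 fold change with age was 2.81 (SE 1.18, adjusted p = 0.229), not called, and DESeq2 called it (adjusted p = 0.0434). Without young replicate 1 it was 5.25 (edgeR adjusted p = 0.00551), and without the 3 libraries numbered 1, a choice made after seeing the data, it was 4.64 (edgeR adjusted p = 3.79e-11). With GB it was -0.78 (SE 1.11, adjusted p = 0.592). The clock gene Per1, chosen after its values were seen, had 76.8, 88.2 and 98.9 CPM in aged GB libraries, 372, 127 and 128 CPM in aged vehicle libraries and 118, 12.9 and 11.7 CPM in young vehicle libraries, with young replicate 1 again near the aged libraries and aged replicate 1 again the highest. Slc25a33, a pyrimidine nucleotide carrier, had 12.9, 11.8 and 10.2 CPM in aged GB libraries, 33.6, 11 and 11.3 CPM in aged vehicle libraries and 10.2, 8.98 and 6.39 CPM in young vehicle libraries, so that aged replicate 1 alone stood above the rest. Its log2 fold change with age was 1.13 (SE 0.42, adjusted p = 0.151) and 0.39 without that library. In GENCODE vM21, 14.9% of its exonic bases overlap the antisense gene Gm13068. Slc25a24 had 0.17 with age and -0.45 with GB, Slc25a23 had -0.23 and 0.03, and neither was called in either comparison. On library totals both were called lower with GB, Slc25a24 at -1.02 and Slc25a23 at -0.54.

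**Figure D3:**
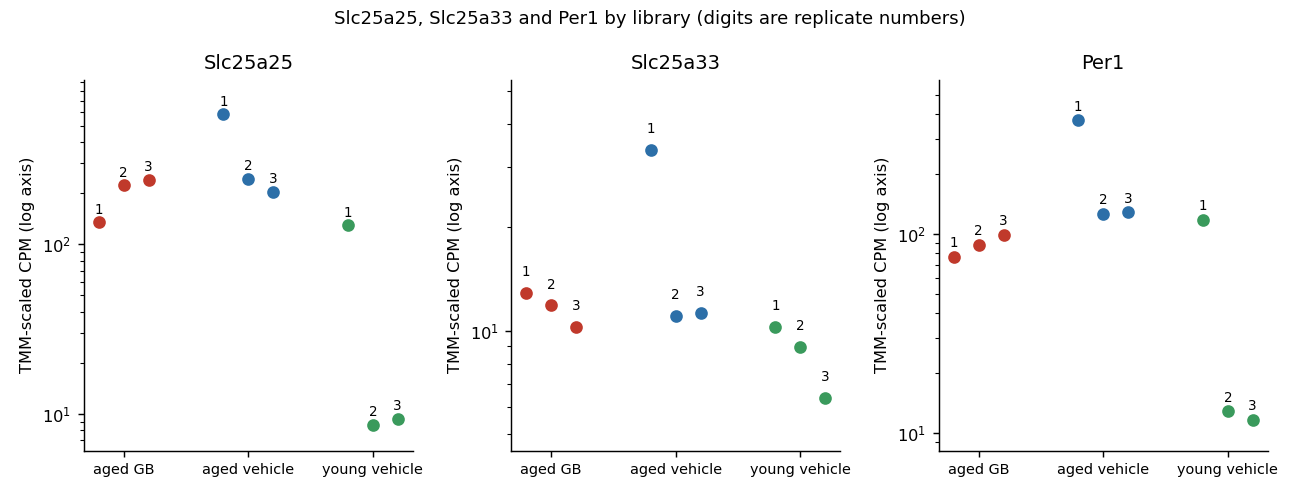
TMM-scaled CPM (log axis) of Slc25a25, Slc25a33 and Per1 in each library of the aged GB, aged vehicle and young vehicle groups; digits are replicate numbers. For Slc25a25 and Per1, young replicates 2 and 3 sit well below all other libraries and aged replicate 1 is the highest; for Slc25a33, aged replicate 1 alone is high.

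RefSeq lists 3 starts for Slc25a25, and the counts are summed over its transcripts, so the windows of all 3 are shown. They lie on the minus strand of GRCm38.p6 at chr2:32451421-32451720, chr2:32431102-32431401 and chr2:32424017-32424316, with GC boxes and the cAMP response element TGACGTCA (a palindrome) in capitals.
Slc25a25 start 1: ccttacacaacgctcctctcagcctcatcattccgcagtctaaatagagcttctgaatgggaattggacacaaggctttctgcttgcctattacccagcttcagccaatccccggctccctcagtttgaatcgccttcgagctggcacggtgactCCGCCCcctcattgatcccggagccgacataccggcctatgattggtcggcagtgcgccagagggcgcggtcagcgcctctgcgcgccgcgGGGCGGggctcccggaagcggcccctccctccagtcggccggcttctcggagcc
Slc25a25 start 2: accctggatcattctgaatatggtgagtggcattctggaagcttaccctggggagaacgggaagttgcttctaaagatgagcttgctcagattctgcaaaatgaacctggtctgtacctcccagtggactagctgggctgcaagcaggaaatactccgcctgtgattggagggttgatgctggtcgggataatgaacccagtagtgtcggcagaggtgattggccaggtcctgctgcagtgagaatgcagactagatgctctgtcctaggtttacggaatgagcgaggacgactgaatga
Slc25a25 start 3: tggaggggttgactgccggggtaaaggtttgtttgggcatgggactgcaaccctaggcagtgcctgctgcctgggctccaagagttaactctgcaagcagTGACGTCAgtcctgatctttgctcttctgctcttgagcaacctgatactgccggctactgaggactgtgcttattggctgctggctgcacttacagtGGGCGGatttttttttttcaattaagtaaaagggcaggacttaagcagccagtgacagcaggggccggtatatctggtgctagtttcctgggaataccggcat
The cAMP response element letters stand in the window of the third start, with the first letter at position -150 from that start, and not in the other two windows. They occur in 1.79% of all windows and, among the members, also in the window of Slc25a36 at -161. The start in use was not measured here.

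Of the 8 malate-aspartate, dicarboxylate and tricarboxylate carriers, 7 were tested. With GB 3 fell and 2 rose (42.9% and 28.6%, beside 28.8% and 24.4% of all tested genes). With age 2 fell (28.6%, beside 4.28%). Their median log2 fold change was -0.56 with GB and -0.05 with age, beside -0.05 and -0.00 over all tested genes. Slc25a12 and Slc25a11, both arms of the malate-aspartate shuttle, fell with GB. Slc25a12 had 282, 309 and 274 CPM in aged GB libraries, against 654, 598 and 623 CPM in aged vehicle libraries, a log2 fold change of -1.12 (SE 0.09, adjusted p = 3.49e-07). The 2 groups were far apart. They did not overlap, as was the case for 59.7% of all tested genes between these groups. Slc25a11 had 214, 200.3 and 162 CPM in aged GB libraries, against 259.6, 288 and 296 CPM in aged vehicle libraries, with -0.55 (SE 0.10, adjusted p = 0.000602), again without overlap. Slc25a13, the liver form of the aspartate/glutamate carrier, was low in every library, with 0.699, 0.720 and 0.703 CPM in aged GB libraries, 0.985, 1.23 and 0.952 CPM in aged vehicle libraries and 2.08, 0.884 and 1.09 CPM in young vehicle libraries, and was not called, at -0.58 (SE 0.41, adjusted p = 0.256) with GB. Slc25a34, a carrier whose substrates are little known, had 8.96, 12.4 and 8.35 CPM in aged GB libraries, against 30.3, 28.5 and 27.7 CPM in aged vehicle libraries and a log2 fold change of -1.54 (SE 0.15, adjusted p = 2.89e-06), and its relative Slc25a35 had -0.56 (SE 0.24, adjusted p = 0.0643). In GENCODE vM21, 31.3% of the exonic bases of Slc25a35 are shared with Rangrf, so its counts are uncertain.

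Slc25a1 and Slc25a10 moved in opposite directions in the comparisons, lower with age and higher with GB, against the same aged vehicle libraries. Slc25a1 exports citrate, the precursor of cytosolic acetyl-CoA for lipid synthesis, and Slc25a10 exchanges malate and succinate for phosphate. Slc25a1 had 12.7, 13 and 5.82 CPM in aged GB libraries, 3.87, 4.45 and 6.42 CPM in aged vehicle libraries and 10.8, 17.2 and 14.9 CPM in young vehicle libraries. Aged GB replicate 3 lay within the range of the aged vehicle libraries, and the young vehicle libraries lay above all of these aged vehicle values. Its log2 fold change was -1.54 (SE 0.30, adjusted p = 0.0102) with age and 1.09 (SE 0.31, adjusted p = 0.0108) with GB. The call with age was lost without aged replicate 2 and without the filter on low counts, and the call with GB in 5 of 15 alternatives, among them leaving out GB replicate 1 or 2. Slc25a10 had 10.7, 8.58 and 7.51 CPM in aged GB libraries, 4.33, 4.99 and 4.17 CPM in aged vehicle libraries and 7.65, 9.69 and 9.24 CPM in young vehicle libraries, with no overlap between aged vehicle and either other group. It had -0.98 (SE 0.18, adjusted p = 0.00489) with age and 0.99 (SE 0.18, adjusted p = 0.000478) with GB. On library totals neither rise with GB was called. Adipocyte markers, 5 of 5 measured and none at 0 throughout a group, summed to 76.4 to 142 CPM for aged GB, 28.1 to 39.5 CPM for aged vehicle and 50.9 to 87.7 CPM for young vehicle libraries, so they were lowest in the same group. This was not particular to them. Sums of skeletal muscle and slow fibre markers, given above, were also lowest there. Schwann cell markers summed to 151 to 254 CPM for aged GB, 105 to 120 CPM for aged vehicle and 218 to 417 CPM for young vehicle libraries. The part of any of these in the values of both carriers was not tested.

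Amino acid, carnitine and glutathione carriers numbered 13, of which 12 were tested. With GB 3 rose and 3 fell (25% each, beside 24.4% and 28.8% of all tested genes). With age 1 rose (8.33%, beside 4.32%). The median was -0.17 in both comparisons, beside -0.05 with GB and -0.00 with age over all tested genes. Slc25a39, a glutathione carrier, had 71.9, 64.3 and 66.6 CPM in aged GB libraries, against 35.7, 37.7 and 42.2 CPM in aged vehicle libraries, a log2 fold change of 0.81 (SE 0.10, adjusted p = 2.41e-05). Slc25a38, the mitochondrial glycine carrier used for haem synthesis, had 18.6, 17.2 and 16.1 CPM in aged GB libraries, against 10.9, 13.1 and 13.3 CPM in aged vehicle libraries, with 0.48 (SE 0.12, adjusted p = 0.00523). Neither pair of groups overlapped. On library totals neither was called, and Slc25a38 was at -0.09. Slc25a40, the paralog of Slc25a39, had -0.39 (SE 0.23, adjusted p = 0.172) with GB and was not called. Slc25a2, an ornithine carrier, had 1.33, 0.75 and 0.607 CPM in aged GB libraries, against 0.105, 0.126 and 0.0821 CPM in aged vehicle libraries, with 3.07 (SE 0.62, adjusted p = 0.00112), from 150 reads over the 9 libraries. Its paralog Slc25a15, the ornithine carrier of the urea cycle, fell and had 10.1, 10.3 and 7.93 CPM in aged GB libraries, against 13.9, 13.7 and 11.6 CPM in aged vehicle libraries, with -0.47 (SE 0.14, adjusted p = 0.0142). Slc25a44, a carrier of branched-chain amino acids, had 23.4, 20.9 and 21.0 CPM in aged GB libraries, against 30.8, 27.9 and 28.9 CPM in aged vehicle libraries, with -0.42 (SE 0.10, adjusted p = 0.00279).

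Slc25a22, a glutamate carrier, rose with age and fell with GB. It had 17.4, 24.6 and 26.6 CPM in aged GB libraries, 39.8, 30.3 and 30.8 CPM in aged vehicle libraries and 13.1, 22.8 and 21.2 CPM in young vehicle libraries, so no aged GB or young vehicle library reached an aged vehicle library. The log2 fold change was 0.82 (SE 0.22, adjusted p = 0.0392) with age and -0.56 (SE 0.22, adjusted p = 0.0497) with GB, and each call was lost when any 1 aged vehicle library was left out, in all in 7 of 15 alternatives with age and 9 of 15 with GB. Slc25a20, the acylcarnitine carrier of fatty acid oxidation, had 74.3, 61.5 and 61.6 CPM in aged GB libraries, 66.4, 75.0 and 70.0 CPM in aged vehicle libraries and 63.1, 67.2 and 58.0 CPM in young vehicle libraries. On this TMM scale the groups overlapped, and it was called in neither comparison. It had 0.17 (SE 0.10, adjusted p = 0.356) with age and -0.10 (SE 0.10, adjusted p = 0.424) with GB. On library totals it was called lower with GB, at -0.67 (edgeR adjusted p = 0.000257). There all aged GB libraries lay below all aged vehicle libraries. Slc25a18, Slc25a29, Slc25a45 and Slc25a47 were also called in neither comparison on the TMM scale. On library totals Slc25a29 was called lower with GB, at -0.80.

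All 11 nucleotide, cofactor and metal carriers were tested. With GB 3 rose and 3 fell (27.3% each, beside 24.4% and 28.8% of all tested genes). With age 1 rose (9.09%, beside 4.32%). Medians were 0.06 with GB and -0.08 with age, beside -0.05 and -0.00 over all tested genes. Slc25a42, which carries coenzyme A, had 18.2, 17.5 and 17.6 CPM in aged GB libraries, against 43.7, 51.0 and 52.9 CPM in aged vehicle libraries. The aged GB libraries lay within 1 CPM of each other and far below the aged vehicle libraries, at -1.47 (SE 0.10, adjusted p = 8.03e-08). Slc25a16, a carrier linked to coenzyme A, had 18.1, 14.3 and 20.8 CPM in aged GB libraries, against 35.5, 29.7 and 33.3 CPM in aged vehicle libraries, with -0.89 (SE 0.13, adjusted p = 0.000112). Slc25a32, which carries folate and flavin, had -0.43 (SE 0.16, adjusted p = 0.0358), a call lost in 7 of 15 alternatives. Slc25a17, a peroxisomal carrier of coenzyme A and related cofactors, had 12.2, 17.9 and 16.1 CPM in aged GB libraries, against 8.91, 9.36 and 11.9 CPM in aged vehicle libraries, with 0.62 (SE 0.19, adjusted p = 0.0152), a call lost in 5 of 15 alternatives, among them library totals and leaving out aged replicate 1, aged replicate 2 or GB replicate 2.

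The mitoferrins Slc25a28 and Slc25a37 bring iron into the matrix. Slc25a28 had 45.8, 56.9 and 52.1 CPM in aged GB libraries, 49.6, 33.6 and 33.2 CPM in aged vehicle libraries and 26.7, 27.6 and 22.6 CPM in young vehicle libraries, and it was called higher in both comparisons, with 0.60 (SE 0.15, adjusted p = 0.0311) with age and 0.41 (SE 0.15, adjusted p = 0.0396) with GB. The aged vehicle library numbered 1 lay within the aged GB range, the rise with age was lost without aged replicate 1 or young replicate 2 or 3, and the rise with GB was lost in 7 of 15 alternatives, with a log2 fold change of -0.15 on library totals. Slc25a37, the mitoferrin of developing red cells, had 26.9, 30.7 and 29.4 CPM in aged GB libraries, 28.4, 27.8 and 27.4 CPM in aged vehicle libraries and 30.4, 26.6 and 28.8 CPM in young vehicle libraries, and was called in neither comparison. Its log2 fold change was -0.04 (SE 0.09, adjusted p = 0.87) with age and 0.06 (SE 0.09, adjusted p = 0.629) with GB. On library totals it was called lower with GB, at -0.51 (edgeR adjusted p = 0.000547). Red blood cell markers, 5 of 5 measured and none at 0 throughout a group, summed to 686 to 782 CPM for aged GB, 1158 to 2129 CPM for aged vehicle and 232 to 514 CPM for young vehicle libraries, and their part in these values was not tested. Slc25a51, the NAD carrier, had 79.4, 66.9 and 68.6 CPM in aged GB libraries, 70.2, 60.6 and 66.7 CPM in aged vehicle libraries and 79.7, 78.1 and 84.7 CPM in young vehicle libraries, with -0.30 (SE 0.09, adjusted p = 0.0666) with age and 0.12 (SE 0.09, adjusted p = 0.287) with GB, and the difference with age was called in 4 of 15 alternatives. Slc25a36, the second pyrimidine nucleotide carrier, had 35.9, 59.6 and 82.7 CPM in aged GB libraries, against 40.1, 46.8 and 44.6 CPM in aged vehicle libraries, a spread in the aged GB group that covered the aged vehicle values, at 0.44 (SE 0.27, adjusted p = 0.21). Slc25a26, the S-adenosylmethionine carrier, was called in neither comparison on the TMM scale. On library totals Slc25a51 (-0.44) and Slc25a26 (-0.54) were called lower with GB.

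In the last group, 5 of 6 uncoupling-protein relatives, outer membrane and orphan members were tested. With GB 1 rose and 1 fell (20% each, beside 24.4% and 28.8% of all tested genes). None was called with age, beside 8.6% of all tested genes. Their medians were 0.30 with GB and 0.08 with age, beside -0.05 and -0.00 over all tested genes. Slc25a30, a relative of the uncoupling proteins, had 9.79, 12.7 and 16.4 CPM in aged GB libraries, against 5.24, 5.74 and 4.83 CPM in aged vehicle libraries. The groups did not overlap, and the log2 fold change was 1.30 (SE 0.23, adjusted p = 0.000414). Slc25a46, an outer membrane protein that takes part in mitochondrial fusion and fission, had 34.0, 32.5 and 32.2 CPM in aged GB libraries, against 40.9, 40.3 and 48.3 CPM in aged vehicle libraries, with -0.39 (SE 0.10, adjusted p = 0.00485). Slc25a27 and Slc25a14, 2 further relatives of the uncoupling proteins, had 0.43 and 0.30 with GB and were not called, as was Slc25a53.

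**Figure D4:**
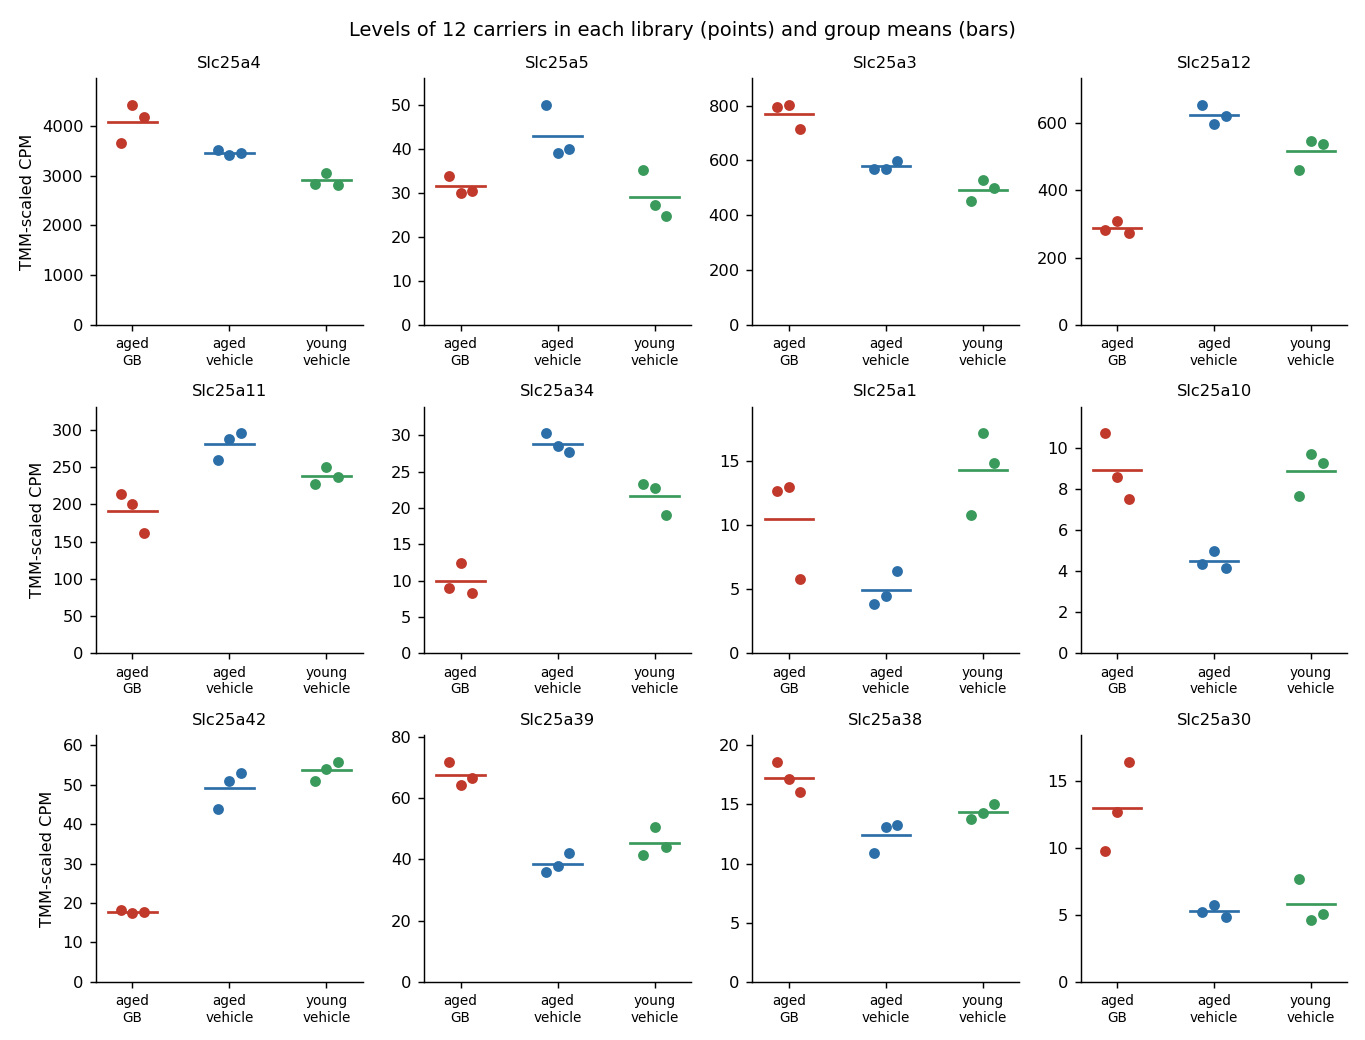
TMM-scaled CPM of 12 carriers in each aged GB, aged vehicle and young vehicle library (points) with group means (lines); every axis starts at 0. Slc25a12, Slc25a11, Slc25a34 and Slc25a42 are lowest in aged GB libraries, Slc25a39, Slc25a38 (lower with GB on library totals, at -0.09) and Slc25a30 are highest there, and Slc25a1 and Slc25a10 are lowest in aged vehicle libraries. On library totals, not drawn, the aged GB and young vehicle libraries overlapped for Slc25a39 and Slc25a30.

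Gene length went with the GB fold change across all genes. The median log2 fold change with GB was 0.69 over the 3870 tested genes of up to 2000 bases, 0.19 at 2000 to 4000 bases, -0.24 at 4000 to 8000 bases and -0.67 over the 2606 genes above 8000 bases. Over the members the medians were -0.56 (4 members), 0.33 (18 members), -0.32 (17 members) and 0.02 (2 members) in the same classes. With an offset for length, 17 members were called with GB instead of 22, and the share of all tested genes called was 46.8% instead of 53.2%. The falls of Slc25a12, Slc25a34, Slc25a42, Slc25a16, Slc25a11, Slc25a44 and Slc25a5 and the rises of Slc25a39, Slc25a30, Slc25a10, Slc25a3 and Slc25a2 were among them, and those of Slc25a4, Slc25a38, Slc25a17, Slc25a1, Slc25a28, Slc25a15, Slc25a22, Slc25a32 and Slc25a46 were not. Slc25a51, Slc25a36, Slc25a29 and Slc25a37 were called with the offset and not without it.

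**Figure D5:**
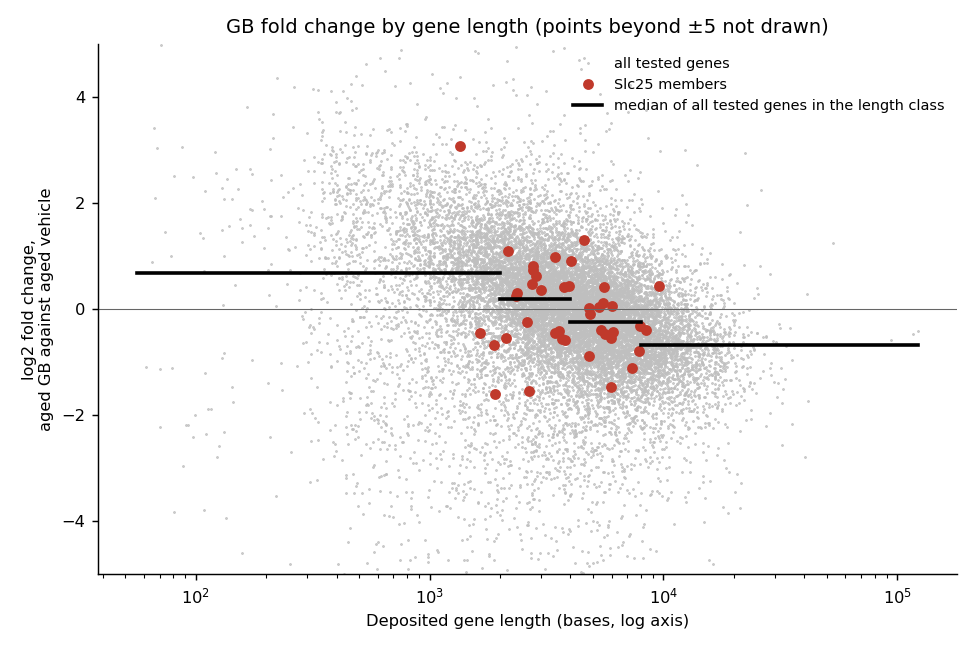
log2 fold change in aged GB against aged vehicle libraries plotted by deposited gene length (log axis) for all tested genes (grey) and the Slc25 members (red), with the median of all tested genes in 4 length classes (black lines). The black lines step down with length, at 0.69, 0.19, -0.24 and -0.67, and members lie on both sides of them.

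Related genes outside the symbol rule were counted from 4 lists, beside 24.4% of all tested genes called higher and 28.8% called lower with GB, and 4.32% and 4.28% with age. Their values are on the TMM scale and were not examined on library totals. The median of all tested genes with GB was -0.05 on the TMM scale and -0.62 on library totals. Small rises of related genes with GB are therefore given for the TMM scale only. Of the family relatives under other symbols, 4 of 5 were tested, and 1 rose with age and 2 with GB, with medians of 0.44 with age and 0.41 with GB. Ucp3, the uncoupling protein of skeletal muscle, had 249, 377 and 334 CPM in aged GB libraries, 736, 383 and 324 CPM in aged vehicle libraries and 49.3, 127 and 129.7 CPM in young vehicle libraries. Its log2 fold change with age was 2.24 (SE 0.48, adjusted p = 0.0343), and with GB -0.59 (SE 0.46, adjusted p = 0.323); young replicate 1 was the lowest and aged replicate 1 the highest of the vehicle libraries, unlike Slc25a25, for which young replicate 1 was the highest of its group. Mtch1 and Mtch2, outer membrane relatives of the carriers, had 0.38 (SE 0.10, adjusted p = 0.00661) and 0.56 (SE 0.07, adjusted p = 2.18e-05) with GB. Ucp1 was at 0 in all aged GB and aged vehicle libraries.

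Of 16 genes of the import machinery that brings carriers to the inner membrane, 15 were tested. With GB 11 rose (73.3%, beside 24.4% of all tested genes) and 2 fell (13.3%, beside 28.8%), with a median log2 fold change of 1.18 beside -0.05 over all tested genes, and with age 1 rose (median 0.02). Timm13, Timm8b, Tomm7 and Timm10b had 2.07, 1.82, 1.73 and 1.45 with GB, and Timm8b had 0.37 with age. Timm8b, a small chaperone of the intermembrane space, had 194, 186 and 180.5 CPM in aged GB libraries, against 52.7, 51.2 and 54.4 CPM in aged vehicle libraries. The median of all tested genes of up to 2000 bases was also above 0 with GB, as given above. Timm8b, Timm10, Timm13, Tomm5, Tomm7 and Tomm22 are in that class. The other rises were in longer genes: Timm22 (3183 bases), Timm10b (3582), Timm9 (4282), Tomm40 (4513) and Tomm20 (4906). The part of gene length in these rises was not tested.

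Of 12 shuttle enzymes that work with the carriers, none rose and 8 fell with GB (66.7%, beside 28.8% of all tested genes), with a median log2 fold change of -0.48, while 4 rose and 2 fell with age (33.3% and 16.7%, beside 4.32% and 4.28%) (median 0.22). Got1, the cytosolic aspartate aminotransferase of the malate-aspartate shuttle, had 186, 171 and 148 CPM in aged GB libraries, 687, 630.3 and 646 CPM in aged vehicle libraries and 383, 437 and 391 CPM in young vehicle libraries. It had 0.70 (SE 0.09, adjusted p = 0.000739) with age and -1.96 (SE 0.10, adjusted p = 7.69e-09) with GB. Ckmt2, the mitochondrial creatine kinase that takes up ATP from Slc25a4, had 0.76 with age and -1.13 with GB, and Cpt1a had 0.69 and -0.94. Cpt1b was at -1.60 with GB, but 81.4% of its exonic bases are shared with an overlapping gene on the same strand. Acly, which cleaves the citrate that Slc25a1 exports, fell in both comparisons, at -0.66 with age and -0.81 with GB.

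Of 22 other transport genes of the mitochondrial membranes, 9 rose and 7 fell with GB (40.9% and 31.8%, beside 24.4% and 28.8% of all tested genes), and 1 rose and 2 fell with age (4.55% and 9.09%, beside 4.32% and 4.28%), with medians of 0.20 with GB and 0.08 with age. With GB the largest differences were those of Abcb10 (-2.17), Smdt1, a subunit of the calcium uniporter (2.03), Tspo (1.44) and Mcub (1.20). Mcub was low, with a mean of 1.98 CPM in aged GB and 0.86 CPM in aged vehicle libraries, from 554 reads in all. In GENCODE vM21, 16.6% of the exonic bases of Smdt1 are shared with Pheta2 on the same strand. With age Mpc1, a subunit of the pyruvate carrier, was at 0.55, and the sideroflexins Sfxn2 and Sfxn3 were at -0.85 and -0.60.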

How the data were processed

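RNA was extracted from gastrocnemius muscle with TRIzol and chloroform and made into KAPA mRNA libraries, per the labels' protocols. The authors deposited raw counts per gene for 9 libraries and a length for each gene. Of the tools, FastQC, HISAT2, SAMtools and DESeq2 appear in the submitters' processing notes, as do the builds GRCm39 and mm10, while counter, annotation and strand setting were not given in the sources used here. The deposited length equals the union of exons in GENCODE vM21 for 43 of the 44 members.

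The deposited counts were filtered with filterByExpr (minimum count 10 and minimum total 15, leaving 17534 genes), scaled with TMM factors and fitted in 1 robust quasi-likelihood model (edgeR 4.0.16, R 4.3.3) over all 9 libraries. P-values are two-sided and Benjamini-Hochberg adjusted over all tested genes. TPM was computed from counts and length for levels between genes. Promoter windows are from RefSeq. Alternatives were other scalings, no filter, DESeq2 1.42.0, limma-voom (limma 3.58.1), a length offset (lowess, span 0.3), the replicate number as a block, fits of 2 groups and leaving out each library.

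The members, role lists and related lists were chosen with earlier results of these data known. Named with values were the 10 members of highest TPM, the up to 8 largest called rises and falls per comparison at 2 CPM or more, fixed paralog sets, and up to 4 called genes of each related list; other members are named to account for all. Groups and replicate numbers come from the titles, which are silent on whether each library is from its own animal; p-values therefore reflect only how much these libraries differ, which may be technical. In GENCODE vM21, exons of 14 members overlap another gene, 2 of them by at least 10% (Slc25a35 and Slc25a33), and their counts are less certain. One member is counted in every total but is not reported here by name, and it is left out of the figures that label members.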

Additional observations from a re-analysis of the deposited data

How the results depend on the processing

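Leaving out 1 library at a time gave 2 to 5 called members with age (0 to 3 higher, 1 to 2 lower) and 749 to 1456 called genes, and with GB 17 to 23 called members (7 to 12 higher, 9 to 11 lower) and 8217 to 9355 called genes. With age, DESeq2 and limma-voom each called 9 members (6 higher), library totals gave 5 higher, and no filter on low counts gave 1 lower. DESeq2 called 2410 genes with age, and the fit without the 3 libraries numbered 1, chosen after seeing the data, called 2439. With GB, library totals gave 3 members higher and 23 lower, the share of higher calls among all called genes was 19.4% instead of 45.9%, and summed member levels were 4845.4 CPM in aged GB, 6906.1 CPM in aged vehicle and 5619.6 CPM in young vehicle libraries.

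For some named members the direction turned, and the cause was not tested. With age, the log2 fold changes without 1 library ran over 0, at -0.286 to 0.116 for Slc25a30, -0.594 to 0.094 for Slc25a13, -0.0942 to 0.00902 for Slc25a37, -0.046 to 0.167 for Slc25a40, -0.235 to 0.00797 for Slc25a17, -0.282 to 0.0188 for Slc25a36 and -0.237 to 1.353 for Slc25a18. Without the libraries numbered 1, Slc25a30 was at 0.121, Slc25a13 at 0.142 and Slc25a18 at -0.477 with age, and Slc25a25 at 0.045 and Slc25a23 at -0.0355 with GB. With GB on library totals, Slc25a4 was at -0.331, Slc25a3 at -0.155, Slc25a51 at -0.440, Slc25a28 at -0.152, Slc25a38 at -0.0928, Slc25a37 at -0.510, Slc25a23 at -0.541 and Slc25a36 at -0.140. With no filter Slc25a37 was at -0.0087 and Slc25a23 at -0.0348. With the length offset Slc25a4 was at -0.1203, Slc25a20 at 0.0573 and Slc25a40 at 0.107. Without 1 library, Slc25a23 ran over -0.098 to 0.137 and Slc25a33 over -0.959 to 0.048 with GB. Over all named members and alternatives, 381 values with GB stayed on the same side of 0 and of the threshold, 36 lost the call, 15 gained one and 18 turned. With age the numbers were 405, 16, 19 and 10.

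A fit with a replicate block gave 5 called members with age and 21 with GB, where Slc25a32 was lost. The deviations of same-numbered libraries correlated at -0.03 to 0.06, so the numbers were not taken as pairs. Low counts limit Slc25a2, Slc25a18 and Slc25a13, and 3 members were too low to test.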
